A study of Homo sapiens with 3 samples.

Results

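The AP-1 group examined here comprises 10 genes: JUN, JUNB, JUND, FOS, FOSB, FOSL1, FOSL2, BATF3, ATF2 and ATF3. They were taken by name, and a MYC peak was assigned to a gene when its summit, the position of highest signal, lay inside the annotated gene or within 5000 bp of it. By this rule 7 of the 10 genes held 10 of the 9818 peaks of the series, and JUND, FOS and FOSB held none. The peaks come from ChIP-Rx of endogenous MYC in parental U2OS cells, an osteosarcoma-derived human cell line, with chromatin of mouse NIH3T3 cells as the added reference. The data comprise 2 MYC immunoprecipitation libraries and 1 input library of the same line, which was grown in serum, and the deposited result is 1 peak list. The labels name no other genotype, treatment or time point. Every fold enrichment and −log10 q below is the authors' own value at the summit. No value per library was analysed, so the sequencing depth is unknown and no value carries a replicate error or a test.

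AP-1 is a dimeric transcription factor built from basic leucine zipper proteins of the Jun, Fos, BATF and ATF families. Jun proteins pair with themselves or with Fos proteins and bind the TPA response element, whereas dimers that contain ATF proteins favour the cyclic AMP response element. Many of these genes are immediate early genes, transcribed within minutes of serum or stress through SRF, CREB and AP-1 itself. MYC is a basic helix-loop-helix leucine zipper protein that pairs with MAX and prefers the E-box. Jun and Fos proteins and MYC are all known as nuclear effectors of growth factor signalling, and AP-1 is long studied in bone cells and osteosarcoma.

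RefSeq promoter windows (GRCh38.p14, 250 bases before to 50 bases from the listed start) were at hand for 7 of the 10 genes. FOSL1, BATF3 and ATF2 had no entry. The windows below are examples of those that touch a peak assigned to these genes and of those that hold a response element, in members with and without a peak. The windows of FIBP, which a peak also covers, and of JUNB, FOSB and the other ATF3 start are not printed. All run 5′ to 3′ along the transcribed strand. Capitals mark TGACGT, the core of the cyclic AMP response element, the full element TGACGTCA, the variant TGACATCA and the AP-1 type element TGANTCA, on either strand. The E-box CACGTG was searched too and is in none of these windows. The first 3 windows printed touch peaks: JUN on the minus strand at chr1:58783998-58784297, its divergent noncoding neighbour JUN-DT on the plus strand at chr1:58784901-58785200, and CCDC85B, a neighbour of FOSL1, on the plus strand at chr11:65890423-65890722.
JUN: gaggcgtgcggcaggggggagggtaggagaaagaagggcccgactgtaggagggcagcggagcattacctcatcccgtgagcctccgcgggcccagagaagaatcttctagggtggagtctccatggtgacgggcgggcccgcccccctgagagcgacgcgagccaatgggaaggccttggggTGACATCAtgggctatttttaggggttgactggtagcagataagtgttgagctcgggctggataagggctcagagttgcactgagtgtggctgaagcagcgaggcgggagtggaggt
JUN-DT: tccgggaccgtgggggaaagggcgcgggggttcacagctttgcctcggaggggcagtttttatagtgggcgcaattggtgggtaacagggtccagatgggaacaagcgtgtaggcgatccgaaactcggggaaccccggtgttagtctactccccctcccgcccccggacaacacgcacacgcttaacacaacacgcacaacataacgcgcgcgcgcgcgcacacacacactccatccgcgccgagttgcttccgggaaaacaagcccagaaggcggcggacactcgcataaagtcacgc
CCDC85B: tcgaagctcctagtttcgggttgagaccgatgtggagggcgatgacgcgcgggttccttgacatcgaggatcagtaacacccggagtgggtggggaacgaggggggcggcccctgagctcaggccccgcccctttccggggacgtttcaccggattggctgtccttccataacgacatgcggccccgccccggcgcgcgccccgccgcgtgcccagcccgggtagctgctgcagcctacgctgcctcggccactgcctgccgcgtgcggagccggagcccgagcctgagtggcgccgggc

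The next windows lie outside every peak. FOSL2 (plus strand, chr2:28392608-28392907) and ATF3 (plus strand, first listed start, chr1:212565157-212565456) have peaks elsewhere, and FOS (plus strand, chr14:75278578-75278877) and JUND (minus strand, chr19:18281573-18281872) have no peak.
FOSL2: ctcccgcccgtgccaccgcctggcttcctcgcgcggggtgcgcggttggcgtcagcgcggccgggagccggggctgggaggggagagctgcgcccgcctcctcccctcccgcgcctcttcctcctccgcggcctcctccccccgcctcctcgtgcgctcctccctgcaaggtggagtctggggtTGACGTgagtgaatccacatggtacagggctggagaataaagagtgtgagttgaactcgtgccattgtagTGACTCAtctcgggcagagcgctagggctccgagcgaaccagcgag
ATF3: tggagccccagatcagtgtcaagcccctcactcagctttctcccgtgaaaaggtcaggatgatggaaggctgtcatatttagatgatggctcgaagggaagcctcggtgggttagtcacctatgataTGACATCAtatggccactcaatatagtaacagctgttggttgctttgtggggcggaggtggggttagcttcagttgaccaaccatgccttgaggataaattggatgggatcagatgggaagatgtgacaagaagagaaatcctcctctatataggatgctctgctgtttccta
FOS: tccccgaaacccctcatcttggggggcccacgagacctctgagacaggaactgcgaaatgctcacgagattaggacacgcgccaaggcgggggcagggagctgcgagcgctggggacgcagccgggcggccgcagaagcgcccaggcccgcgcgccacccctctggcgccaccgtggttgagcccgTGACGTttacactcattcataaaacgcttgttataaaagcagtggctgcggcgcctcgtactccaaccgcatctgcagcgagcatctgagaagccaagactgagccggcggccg
JUND: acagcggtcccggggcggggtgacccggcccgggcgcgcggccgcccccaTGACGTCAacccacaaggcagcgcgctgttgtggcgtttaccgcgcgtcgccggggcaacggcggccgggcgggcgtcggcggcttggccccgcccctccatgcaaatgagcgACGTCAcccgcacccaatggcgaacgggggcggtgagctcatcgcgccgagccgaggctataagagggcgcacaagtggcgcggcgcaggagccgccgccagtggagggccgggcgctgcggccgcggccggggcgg

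MYC summits lay inside or within 5000 bp of JUN, JUNB, FOSL1, FOSL2, BATF3, ATF2 and ATF3. The share of 7 in 10 stands beside 47.7% of all 19974 protein-coding genes under the same rule. The window of a long gene covers more sequence, so the 7 members of at most 20000 bp were also counted alone. Of these, 4 had a summit (JUN, JUNB, FOSL1 and BATF3), beside 39.0% of the 8983 protein-coding genes of that size. At the ends of the genes the count was close to the background: 4 of 10 members (JUN, JUNB, BATF3 and ATF2) had a summit within 1000 bp of an end, beside 37.6% of protein-coding genes. With 10 genes and 1 list, these shares describe the members only.

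**Figure D1:**
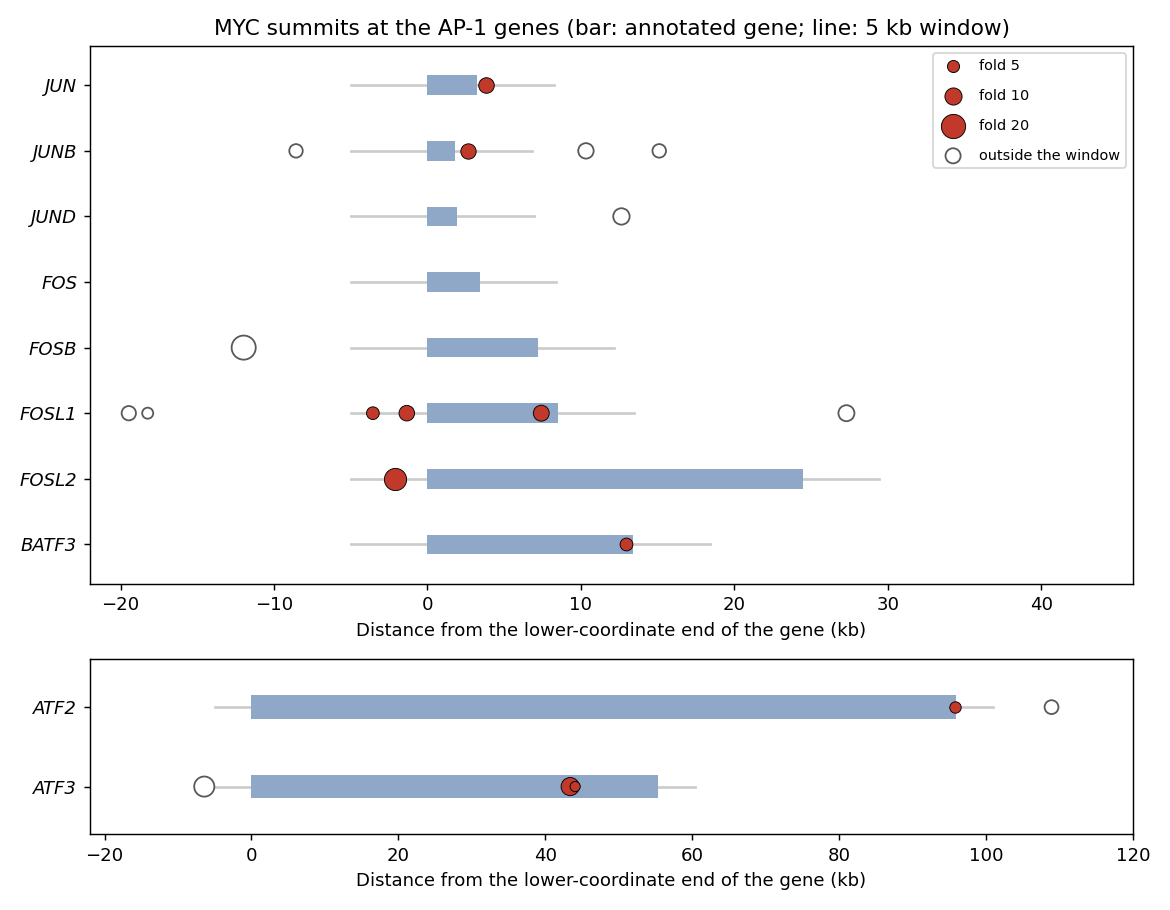
Position of MYC summits (red circles, area proportional to the authors' fold enrichment) relative to the 10 AP-1 genes, in kb from the lower-coordinate end of each annotated gene (blue bar). Grey lines are the 5 kb windows, and open circles are summits within 20 kb that fall outside them. JUND, FOS and FOSB have no summit in their windows.

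Distance to the transcription start could be read for the 7 members with a listed start, of which 4 (JUN, JUNB, FOSL2 and ATF3) had a peak. Among the 7, JUN alone had a summit within 1000 bp of its own listed start, beside 41.5% of the 15813 protein-coding genes with a listed start. JUN was also the only one of the 7 whose 300-base promoter window was touched by a peak, beside 40.1% of those genes. FOSL1, BATF3 and ATF2 had a peak but no listed start or strand, so both counts leave them out. Of these, BATF3 and ATF2 had a summit within 1000 bp of a gene end, at 456 and 239 bp, and FOSL1 had one at 1074 bp. Without a strand it could not be told whether these ends are starts. The count for JUN alone therefore does not stand for the whole group. The position of the strongest summit was sorted after the values had been seen, for the 7879 protein-coding genes with both a strand and a peak. It lay within 1000 bp of a listed start in 77.0% of them, as at JUN. In 9.54% it lay elsewhere inside the gene, as at ATF3, in 8.78% beyond the 3′ end, as at JUNB, and in 4.66% upstream, as at FOSL2. The 4 AP-1 genes that could be sorted thus fell into 4 different classes, 1 gene in each. These classes rest on the listed starts, and a start that is not listed could change them.

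The 10 peaks were of ordinary height. Their fold ran from 3.55 to 16.8 with a median of 8.13, beside a median of 7.78 (quartiles 5.58 and 11.5) over all peaks. Their median −log10 q was 49.6, beside 47.8 over all peaks. By fold, 6 of the 10 exceeded the median of all peaks, 1 exceeded the upper quartile and 4 lay below the lower quartile. Taking the strongest peak of each gene by −log10 q, the 7 members had a median fold of 8.26 and the 9520 protein-coding genes with a peak had one of 8.56. The 2 measures ranked the members differently: FOSL1 led by −log10 q and FOSL2 by fold.

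**Figure D2:**
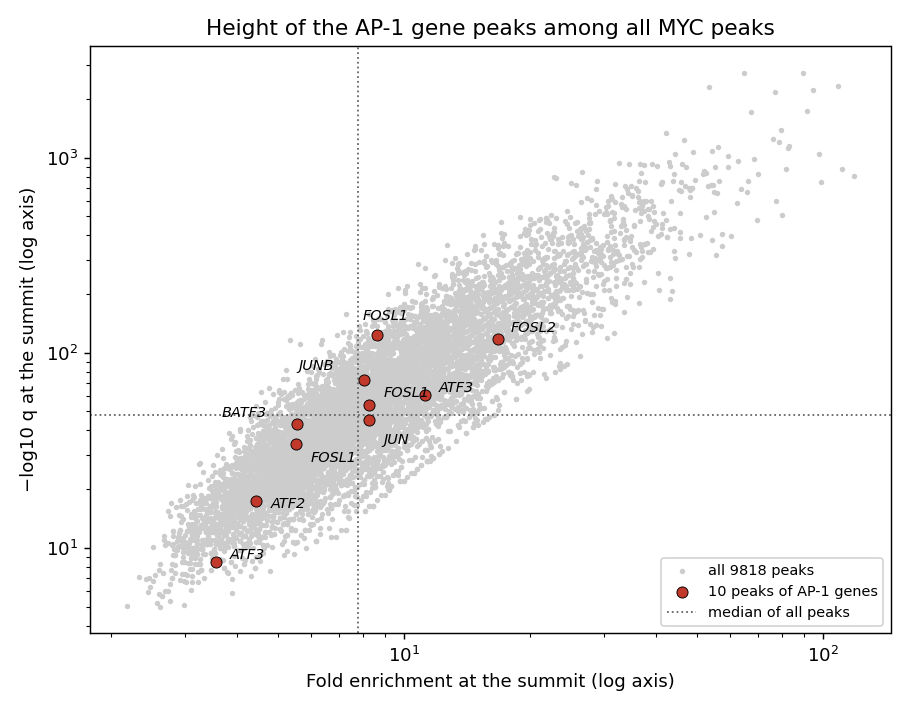
Fold enrichment (x axis, log scale) and −log10 q (y axis, log scale) at the summit of all 9818 peaks (grey) and the 10 peaks assigned to AP-1 genes (red). Dotted lines are the medians of all peaks. The AP-1 peaks spread along the bulk of the list, from a fold of 3.55 to FOSL2 at 16.8, with the weaker ATF3 peak lowest on both axes.

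Of the Jun genes, JUN and JUNB had a peak each and JUND had none. JUN encodes c-Jun, the founding member of the family and the main substrate of the JNK kinases. It is annotated on chromosome 1 from 58780791 to 58784047. Its peak (58784260 to 58785296, 1037 bp wide) reached a fold of 8.26 and −log10 q 45.0, which put it above 54.8% of all peaks by fold and 47.4% by −log10 q. The summit lay 571 bp upstream of the JUN start, on the far side of the promoter window printed above, of which the peak covered only the outermost 38 bases. It lay 533 bp before the start of JUN-DT, a long noncoding RNA gene transcribed away from JUN, whose whole promoter window was inside the peak. The summit therefore stands between the divergent starts, nearly midway, and the list does not assign it to either.

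JUNB encodes a Jun protein that is a weaker activator than c-Jun and is induced together with FOS. It is a gene of 1830 bp on chromosome 19 from 12791486 to 12793315, and its peak (12793464 to 12794288, fold 8.01, −log10 q 72.1) began past the end of the gene. The summit lay 822 bp beyond the 3′ end and 2651 bp from the start, and no peak touched the JUNB promoter window. It was inside no annotated gene. The nearest listed start, 1787 bp away, was that of HOOK2, a gene that encodes a microtubule-linked protein and runs antisense across the 5′ part of JUNB. The next gene was PRDX2, a peroxiredoxin gene, with the nearer end of its span at 2686 bp and its listed start at 7663 bp. Another 2 peaks followed within 10000 bp of JUNB, with folds of 6.18 inside HOOK2 and 8.11 at 20 bp from the start of PRDX2.

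JUND, whose protein is present in resting cells and is the least inducible of the Jun proteins, is annotated on chromosome 19 from 18279694 to 18281622. The summit nearest to it was 10719 bp away (peak 18291691 to 18292512, fold 9.18, −log10 q 52.3). That summit lay inside the noncoding gene LOC124904653, 502 bp from its start. At this distance 48.5% of protein-coding genes were farther from a summit than JUND was.

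The Fos genes split into a pair without and a pair with a peak. FOS encodes c-Fos, the classical serum-induced partner of Jun proteins, and is annotated on chromosome 14 from 75278828 to 75282230. No summit lay within 100000 bp of it, a situation found for 24.2% of protein-coding genes. The nearest, at 102181 bp, was a strong peak (75176005 to 75177214, fold 20.8, −log10 q 193) 35 bp from the start of TMED10, which encodes a carrier protein of the early secretory pathway. Of all 10 members FOS was the farthest from a summit.

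FOSB, a close relative of FOS known for its stable splice form in neurons, is annotated on chromosome 19 from 45467996 to 45475179. Its nearest summit lay 11973 bp upstream, in a peak (45455695 to 45456465) of fold 19.8 and −log10 q 216. This peak is higher by both measures than any of the 10 that the rule assigned to AP-1 genes. It lay inside no annotated gene, 4476 bp from the start of ERCC1, a DNA repair gene. Protein-coding genes farther from a summit than FOSB made up 47.7% of the total.

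**Figure D3:**
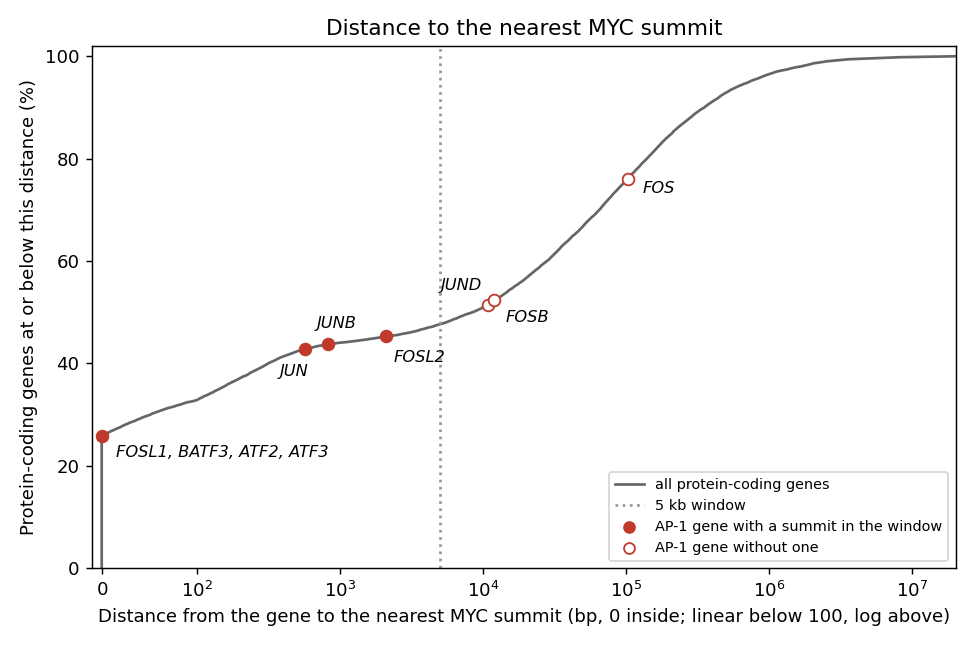
Share of protein-coding genes (y axis, percent) whose distance to the nearest MYC summit is at or below the distance on the x axis (bp, 0 for a summit inside the gene, linear below 100 and log above). Filled circles are AP-1 genes with a summit in the 5 kb window and open circles those without. JUND and FOSB lie just past 10000 bp and FOS at 102181 bp.

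FOSL1 had the most peaks of any member. It encodes FRA1, a Fos protein without a strong activation domain that is abundant in many invasive tumours, and is annotated on chromosome 11 from 65892049 to 65900545. The peak inside it (65899167 to 65900033, 867 bp wide) reached a −log10 q of 124, above 83.5% of all peaks and the highest of the group by that measure. Its fold of 8.62 was above 57.7% of peaks. The summit lay 1074 bp from the upper end of the gene, just outside the 1000 bp used for gene ends.

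The other 2 peaks within the FOSL1 window had their summits close to listed starts of its neighbours. One (65890392 to 65890811, fold 8.26, −log10 q 54.2) had its summit 34 bp from the start of CCDC85B, inside the CCDC85B window printed above. The other (65888239 to 65888743, fold 5.52, −log10 q 34.1) had its summit 28 bp from the start of FIBP, which encodes a fibroblast growth factor binding protein, and 4758 bp from the protease gene CTSW. The summits were 1342 and 3550 bp from the lower end of FOSL1. Without these 2 peaks FOSL1 still has a peak and the count of 7 genes stands, with 8 peaks and a median fold of 8.13. Having 3 or more summits by this rule is uncommon, at 0.951% of protein-coding genes.

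FOSL2 had the highest fold of the group. It encodes FRA2, a Fos protein with roles in bone and connective tissue, and is annotated on chromosome 2 from 28392858 to 28417317. Its peak (28390077 to 28391168, 1092 bp wide) had a fold of 16.8, above 89.4% of all peaks, and a −log10 q of 117, above 82.0%. The summit lay 2097 bp upstream of the listed start and the peak did not reach the promoter window. It fell inside FOSL2-AS1, a noncoding gene on the opposite strand, 3911 bp from the start of that gene, and 3866 bp from the noncoding LOC105374383. Counting this summit, FOSL2 had 1 within 100000 bp, where the median protein-coding gene had 2.

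BATF3 encodes a small basic leucine zipper protein without a transactivation domain that pairs with Jun proteins and is required for a class of dendritic cells. It is annotated on chromosome 1 from 212686417 to 212699840. Its peak (212699140 to 212699510) was only 371 bp wide, wider than just 5.46% of the list, and reached a −log10 q of 43.2 at a fold of 5.56. The summit lay inside the gene, 456 bp from its upper end.

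ATF2 encodes a protein activated by JNK and p38 kinases that pairs with c-Jun at the cyclic AMP response element type site of the JUN promoter. It is the longest member, on chromosome 2 from 175072259 to 175168203. Its peak (175167581 to 175168587, 1007 bp wide) was wide but low, at fold 4.44 and −log10 q 17.4, above 10.9% and 10.1% of all peaks. The summit lay 239 bp inside the upper end, the closest of the 10 to an end of its member gene, and the peak ran across that end. The microRNA gene MIR933, at 175167633 to 175167709, lies within the same peak. Among the 7 members with a peak, ATF2 thus had the weakest leading peak.

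ATF3 encodes a stress-induced protein that represses as a homodimer and works with Jun proteins as a heterodimer, and is known to be transcribed from alternative promoters. It is annotated on chromosome 1 from 212565407 to 212620777 and had a pair of peaks within this span. The stronger (212608431 to 212608932, 502 bp) reached fold 11.2 and −log10 q 60.6. The weaker (212609187 to 212609517, 331 bp) reached fold 3.55 and −log10 q 8.44, the latter above just 0.733% of all peaks. Their summits were 683 bp apart, 254 bp separated the peaks, and the folds differed 3.15 times.

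Neither ATF3 peak lay at a listed start. The stronger summit was 43373 bp past the first listed start, whose window is printed above, and 6238 bp before the other. No start in the table used here lay closer, and nearness to a start that it does not list could not be judged. A further peak (212558153 to 212559211, fold 13.8, −log10 q 88.3) lay 6424 bp upstream of the gene, outside the 5000 bp window. That peak was higher by both measures than the pair inside.

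None of the promoter windows of these genes held the canonical E-box. Of the 7 genes with a window, 6 (all but JUNB) held TGANTCA, the core TGACGT or the variant TGACATCA. At least 1 of these 3 was in 6 of the 8 windows of these genes and in 17.4% of all windows. The last 2 were added to the search after these sequences had been read, so the count of 6 rests mostly on them. Of the response elements chosen before, TGANTCA was in FOSL2 alone and TGACGTCA in JUND alone. Motifs were searched on both strands of the 8 windows of 7 members and in all 34961 RefSeq windows of the same length. CACGTG was in none of the 8 and in 7.27% of all windows, so its absence from so few windows says little. Any E-box, CANNTG, which includes CACGTG, was in 5 of the 8 (ATF3, FOS, FOSB, FOSL2 and JUND) and in 68.7% of all. JUN, the one member whose window was touched by a peak, held no CANNTG, whereas the JUN-DT window inside the same peak held 2. A match is a description of the letters and no match speaks only of these 300 bases.

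Because TGACGT and TGACATCA were added after the sequences had been read, their counts cannot be weighed against the shares over all windows. The core TGACGT was in 4 of the 8 windows of these genes (FOS, FOSB, FOSL2 and JUND) and in 7.97% of all windows. It began 64 bases before the start in FOS, 60 in FOSB and 66 in FOSL2, and JUND held the full TGACGTCA at 200 bases, which 1.85% of all windows have. TGACATCA, a known AP-1 and ATF2 site of the JUN promoter, began 67 bases before the JUN start and 123 before the first ATF3 start, and was in 2.61% of all windows. TGANTCA was in FOSL2 alone, as TGACTCA just past the start (7.68% of all windows). TATAAA was in the windows of FOS, FOSB and JUNB, beginning 33, 30 and 31 bases before the start, and in 11.5% of all. In ATF3 it began 230 bases before the later listed start, in a window not printed. CCAAT was in the windows of ATF3, JUN, JUNB and JUND (34.6%). The SRF-binding CArG box was in none (1.30%), and sequence more than 250 bases before a start was not searched.

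Related genes of the pathway were counted by the same rule, from 6 lists of general knowledge. Over all protein-coding genes the shares were 47.7% with a summit by the rule and 37.6% within 1000 bp of an end. Other dimer partners of the group had a summit in 7 of 10 cases, led by MAFG (fold 8.81), MAFK (6.72) and ATF7 (11.2). CREB, ATF and C/EBP factors, the wider basic leucine zipper family, had one in 13 of 15 cases and within 1000 bp of an end in 11. ATF4, the effector of the integrated stress response (−log10 q 636), NFE2L1 (308) and NFE2L2 (180) led them, and their strongest peaks had a median fold of 10.4. ATF4, NFE2L1 and CEBPG, the last named after its value was seen, exceeded all 10 AP-1 peaks by both measures.

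The kinases upstream of AP-1 had a summit in 16 of 20 cases, 15 of them with one at a gene end. MAP2K5 (fold 16.0) and MAP2K1, which encodes MEK1 (10.2), were among the strongest. All 3 JNK genes had one, with a −log10 q of 59.4 at MAPK8, 46.7 at MAPK9 and 49.9 at MAPK10. SRF and its cofactors, which control the serum response of FOS, had a summit in 7 of 9 cases, led by MEF2D (19.8), SRF (11.7) and ELK4 (8.90). These are long genes, with median spans of 77049 and 75450 bp beside 7840 bp for the AP-1 members. The median over all protein-coding genes was 24170 bp, and a share over genes of similar length was not computed.

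Other immediate early genes had a summit in 15 of 28 cases and at an end in 10. ZFP36L2, an mRNA decay factor gene (fold 45.8), the phosphatase gene DUSP2 (16.9) and IER2 (13.0) were strongest, and 13 had none. EGR1, the classical companion of FOS in the serum response, had a low peak (4.44). Textbook AP-1 target genes had a summit in 8 of 18 cases and at an end in 6, with the heme oxygenase gene HMOX1 (21.9) and VEGFA (25.0) among the strongest. The collagenase genes MMP1 and MMP13 and the cytokine genes IL6 and CXCL8 were among the 10 without. EGR1, the JNK genes and these 4 genes are named after their values were seen. Set beside 47.7% of all protein-coding genes, the shares of the last 2 lists (53.6% and 44.4%) were near the background.

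**Figure D4:**
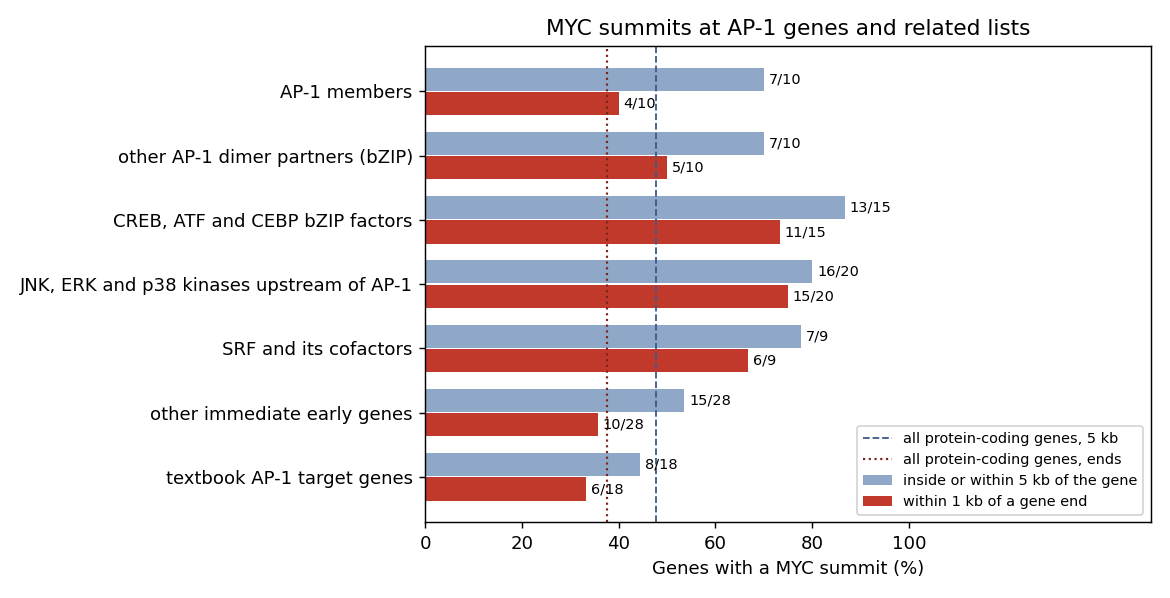
Share of genes (x axis, percent, counts at the bars) with a MYC summit inside or within 5 kb of the gene (blue) and within 1 kb of a gene end (red) for the 10 AP-1 members and 6 related lists. The dashed and dotted lines are the same shares over all protein-coding genes, 47.7% and 37.6%. The AP-1 members have 7 of 10 by the first measure and 4 of 10 by the second.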

How the data were processed

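MYC was profiled by ChIP-Rx in 2 IP libraries and 1 input library of U2OS cells. Tools listed without version in the submitters' processing notes are MACS2, Bowtie2, cutadapt, Picard and SAMtools; builds listed are hg38, hg19 and mm10. Pooling of the IP libraries and scaling by mouse reads are not described in the labels. The deposited hg38 list holds the authors' fold over control, a linear ratio at the summit, −log10 p and −log10 q, and a score that is 10 times the −log10 q without decimals in 99.8% of rows. Only fold and −log10 q were used.

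Summits were assigned to RefSeq genes (GRCh38.p14, chromosomes 1 to 22 and X) with Python 3.11.15 and pandas 2.3.3. The assignment was tested on simulated data. Strand and starts came from the RefSeq promoter table. Shares over all protein-coding genes are the background. No test was run, as the list has no replicate values. Percentiles are shares of peaks with a lower value. In each related list the 3 genes highest by −log10 q are named, apart from some that are not reported here. The members and lists were chosen with earlier results of these data known. Other windows, thresholds and any base of the peak were tried.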

Additional observations from a re-analysis of the deposited data

How the results depend on the processing

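The count of 7 AP-1 genes with a summit stayed at 7 with a −log10 q of at least 10, with any base of the peak and with a window of 10000 bp (13 peaks), and was 6 with 1000 bp, where FOSL2 dropped out. With only the stronger 50% of peaks it was 4 (JUNB, FOSL1, FOSL2 and ATF3), with 5 peaks, 1 gene with a summit at an end (JUNB) and a median fold of 8.62, and 27.7% of protein-coding genes had a summit. Counting only summits inside the gene left 4 genes and 5 peaks, with a median fold of 5.56, beside 25.9% of protein-coding genes with a summit inside. The median fold was 8.26 with a −log10 q of at least 10, 8.01 with a window of 1000 bp and 8.11 with 10000 bp. At gene ends, 2 genes (BATF3 and ATF2) remained with 500 bp and 1 with listed starts only (JUN), which covers 7 genes. The background of 47.7% was 39.0% for genes of at most 20000 bp, 44.1% with a window of 1000 bp and 23.2% over all gene classes. No background share is given for a −log10 q of at least 10, the window of 10000 bp, the 500 bp ends or the ends with stronger peaks. Those member counts are description only. Leaving out the 2 FOSL1 peaks at neighbours' promoters was chosen after seeing the data and changed none of the member counts by more than 1.5 times. The depth is unknown, so a gene without a peak has no peak in this list, which starts at a −log10 q of 5.00, and lower occupancy there cannot be told apart from none.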
